A study of Mus musculus with 16 samples.

Results

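Toll-like receptors (TLRs) are the receptors with which macrophages sense microbial molecules, and Cd14 is the co-receptor that hands them lipopolysaccharide and other ligands. The 9 receptor genes Tlr1, Tlr2, Tlr6, Tlr4, Tlr3, Tlr7, Tlr8, Tlr9 and Tlr13, together with Cd14, were followed by RNA sequencing in mouse bone marrow-derived macrophages. These 10 genes were found by their symbols among 54532 Ensembl gene identifiers, and all 10 passed the filter on low values that left 11654 genes for testing. The macrophages were grown from marrow of the FVB/N strain for several days in medium conditioned by L929 fibroblasts. Wild-type cells and cells labelled FOXO3-/- each received the vehicle DMSO or 100 nM dexamethasone for 24 h, with 4 libraries in each of the 4 groups. Dexamethasone is a synthetic agonist of the glucocorticoid receptor, FOXO3 is a forkhead transcription factor, and the study's title places FOXO3 within glucocorticoid receptor signalling. The allele carried by all FOXO3-/- cells, and whether libraries of a group came from separate animals or cultures, were not stated in the sources used here. The p-values therefore measure the spread between libraries, which may be technical in part.

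TLRs are usually grouped by where they meet their ligands. TLR1, TLR2, TLR4 and TLR6 act at the cell surface: TLR2 pairs with TLR1 or with TLR6 to bind bacterial lipopeptides, and TLR4 binds lipopolysaccharide with the help of CD14 and MD-2. TLR3, TLR7, TLR8, TLR9 and TLR13 act in endosomes on nucleic acids. TLR3 binds double-stranded RNA, TLR7 and TLR8 sense single-stranded RNA, TLR9 binds DNA with unmethylated CpG motifs, and TLR13, which humans lack, binds a stretch of bacterial ribosomal RNA. Most TLRs signal through the adaptor MyD88 to NF-kB and the interferon regulatory factors, and glucocorticoids are known to dampen this signalling in macrophages.

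Promoter sequences of the genes that carried the main differences are shown first. RefSeq promoter windows (GRCm38.p6; up to 250 bases before a RefSeq start) were found for 7 of the 10 genes and not used for Tlr4, Tlr7 and Cd14, and only bases before the first annotated base of the gene are printed. Tlr1 was the gene that fell most with dexamethasone, Tlr2 is its partner, Tlr9 fell with dexamethasone and was higher in libraries labelled FOXO3-/-, and Tlr8 rose with dexamethasone in libraries labelled FOXO3-/-. Capitals mark the motif found in each, and positions are counted from the RefSeq start.
Tlr1, chr5:64933564-64933808, minus strand, capitals PU.1 motif at -23 to -18: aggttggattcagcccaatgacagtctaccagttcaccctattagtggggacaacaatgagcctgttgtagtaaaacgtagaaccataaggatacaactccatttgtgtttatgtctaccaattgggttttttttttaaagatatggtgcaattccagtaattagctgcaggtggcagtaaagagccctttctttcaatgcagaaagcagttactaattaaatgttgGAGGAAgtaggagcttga
Tlr2, chr3:83841768-83841858, minus strand, capitals NF-kB motif at -173 to -163: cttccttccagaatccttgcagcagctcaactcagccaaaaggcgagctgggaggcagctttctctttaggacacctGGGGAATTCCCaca
Tlr9, chr9:106222348-106222597, plus strand, capitals PU.1 motif at -112 to -107 and AP-1 motif at -58 to -52: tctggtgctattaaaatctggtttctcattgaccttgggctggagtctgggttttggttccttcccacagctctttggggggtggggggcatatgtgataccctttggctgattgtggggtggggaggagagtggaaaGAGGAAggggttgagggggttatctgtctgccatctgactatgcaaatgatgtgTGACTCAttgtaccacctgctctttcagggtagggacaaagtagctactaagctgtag
Tlr8, chrX:167264330-167264579, minus strand, capitals PU.1 motif on the opposite strand at -77 to -72: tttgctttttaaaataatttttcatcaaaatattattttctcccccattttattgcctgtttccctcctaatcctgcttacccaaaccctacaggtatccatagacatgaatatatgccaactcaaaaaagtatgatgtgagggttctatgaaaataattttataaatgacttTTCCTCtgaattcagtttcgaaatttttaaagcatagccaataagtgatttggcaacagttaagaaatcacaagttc

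The motifs were searched on both strands. They were the PU.1 motif GAGGAA (macrophage lineage factor), the AP-1 motif TGANTCA, an NF-kB motif GGGNNNNNCC, an interferon-response motif GAAANNGAAA, the FOXO motif TGTTTAC, the glucocorticoid receptor single-arm site AGAACA and its palindrome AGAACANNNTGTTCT. The Tlr2 match is a pair of overlapping NF-kB matches, 1 on each strand. PU.1 matches lay in the windows of Tlr1, Tlr8, Tlr9 and Tlr13, which is 4 of 7 genes, and 23.3% of all 32851 RefSeq windows held one. The 7 genes had 9 windows, with 2 each for Tlr1 and Tlr6, so counts of genes and shares of windows are unlike measures. NF-kB matches lay in the windows of Tlr2, Tlr3 and Tlr6, against 45.8% of all windows. The single-arm site was found for Tlr13 alone, at -51 to -46, against 16.1% of all windows. The FOXO motif, held by 3.17% of all windows, was in none of the 7, nor was the palindrome, which was in 3 windows (0.00913%). Tlr6 had a pair of overlapping interferon-response matches, a motif in 2.98% of windows, and the AP-1 motif of Tlr9 was in 6.75% of windows.

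Levels are given in FPKM, deposited read values scaled to exon length and to 1 denominator per library. Levels of different genes can thus be set side by side within a library. Reads recovered from the deposited values lay between 16886745 and 20584573 per library. The denominators lay between 16453945 and 19857067 and did not keep a fixed proportion to these reads. In libraries labelled FOXO3-/-, vehicle replicate 2 had 20496255 reads and a denominator of 16568784. Vehicle replicate 4 had 20492716 and 19319725, and dexamethasone replicate 2 had 19885566 and 19170712. Limma voom, an alternative used below, scales by the reads instead. The part of this scaling in the FPKM differences was not tested. All 10 macrophage markers, Cd14 among them, exceeded 1 FPKM on average in every group, and their sum lay between 9889 and 15879 FPKM. Lyz2 alone averaged 8593 to 11272 FPKM by group, so the sum says little of the others. By limma, 7 of the 10 fell and 2 rose with dexamethasone in wild type, against 18.2% and 11.9% of all genes. With dexamethasone 6 were higher in libraries labelled FOXO3-/- than in wild type and none lower, against 14.3% and 12.4%. With vehicle 1 was higher, against 3.37%. The part of these markers in the results below was not tested. Fkbp5, a direct target of the glucocorticoid receptor, averaged 1.19 FPKM with vehicle and 81.6 FPKM with dexamethasone in wild type, and 1.03 and 105 FPKM in libraries labelled FOXO3-/-. Foxo3 itself averaged 24.7 ± 1.72, 23.2 ± 1.07, 23.8 ± 0.635 and 24.5 ± 1.44 FPKM (SD, n = 4) in wild type with vehicle, wild type with dexamethasone, FOXO3-/- with vehicle and FOXO3-/- with dexamethasone. Gene-wide Foxo3 RNA thus did not separate the genotype labels, and which part of the gene the allele changes was not stated in the sources used here, so every direction by genotype below rests on the labels. Stromal marker RNA was present in unequal amount. The sum of 10 stromal markers ranged from 21.1 to 405 FPKM in wild-type vehicle, 47.1 to 803 in wild-type dexamethasone, 2.01 to 281 in FOXO3-/- vehicle and 4.38 to 64.1 in dexamethasone libraries labelled FOXO3-/-. Wild-type vehicle replicate 3 and wild-type dexamethasone replicate 4 were low in Col1a1, a fibroblast collagen, for their groups, and FOXO3-/- vehicle replicate 4 was high. In such bulk samples fewer cells of a type and less RNA per cell cannot be told apart.

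**Figure D1:**
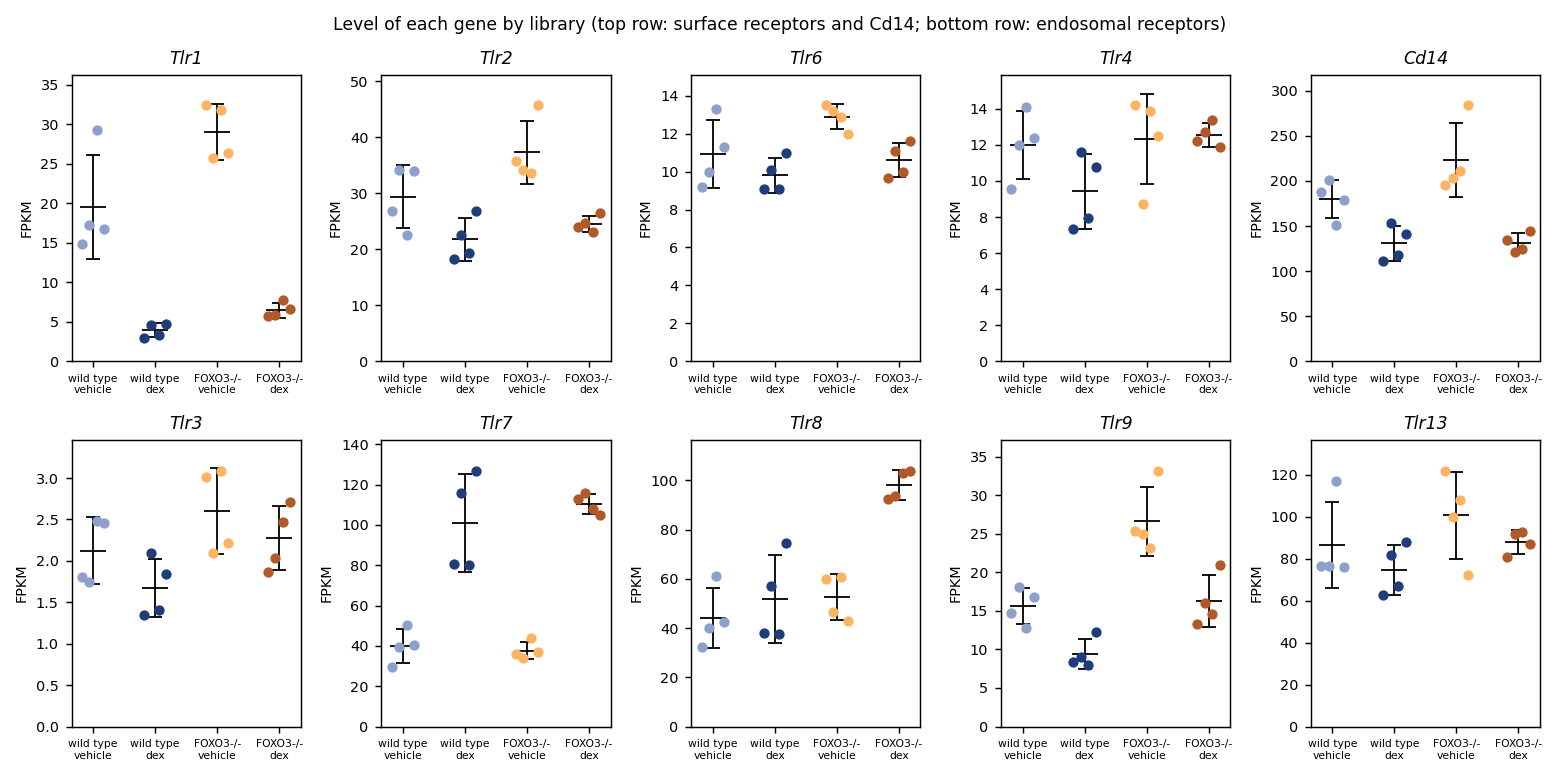
Level in FPKM (vertical axes, linear from 0) of the 10 genes in each library, by group; points are libraries (n = 4 per group), long bars the mean and whiskers 1 SD. Tlr1 points with dexamethasone lie between 2.94 and 7.74 FPKM, below all vehicle points, Tlr7 points with dexamethasone lie between 80 and 127 FPKM, above all vehicle points, and Tlr8 reaches 92.4 to 104 FPKM in dexamethasone libraries labelled FOXO3-/-.

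The order of levels put Cd14 first and Tlr3 last in every group. With vehicle, the order in wild type was Cd14 at 180 FPKM, Tlr13 at 86.5, Tlr8 at 44, Tlr7 at 40, Tlr2 at 29.4, Tlr1 at 19.5, Tlr9 at 15.6, Tlr4 at 12, Tlr6 at 11 and Tlr3 at 2.12. From Tlr8 down to Tlr6, each gene's libraries overlapped in level with those of the next gene in that order. Dexamethasone reordered the list: Tlr7 moved from rank 4 to rank 2, at 101 FPKM in wild type and 111 FPKM in libraries labelled FOXO3-/-, and Tlr1 moved from rank 6 to rank 9, at 3.91 and 6.45 FPKM. In wild type with dexamethasone the libraries of Cd14, Tlr7, Tlr13 and Tlr8 formed a chain in which each overlapped the next. In libraries labelled FOXO3-/- with dexamethasone, Cd14 lay above Tlr7 and Tlr7 above Tlr8 without overlap.

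With dexamethasone, Tlr1, Tlr2, Cd14 and Tlr9 were lower and Tlr7 was higher in both genotypes. With an adjusted p under 0.05 from limma on log2(FPKM + 1), 5 of the 10 genes changed in wild type: Tlr1, Tlr2, Cd14 and Tlr9 fell and Tlr7 rose. Of all genes tested, 30.1% were called in that comparison, 18.2% lower and 11.9% higher. In libraries labelled FOXO3-/-, 7 of 10 changed: Tlr1, Tlr2, Tlr6, Cd14 and Tlr9 fell, and Tlr7 and Tlr8 rose. The share of all genes called there was 39.1%, with 24.1% lower and 15.0% higher. The median log2 difference of the 10 genes was -0.28 in wild type and -0.22 in libraries labelled FOXO3-/-, and over all genes it was -0.02 and -0.05. Among all calls, 39.5% were higher in wild type and 38.4% in libraries labelled FOXO3-/-. That split depended on the scaling: it was 56.1% and 65.6% by limma voom on recovered reads, and 51.1% in libraries labelled FOXO3-/- after quantile normalization. Voom moved the median of all genes in libraries labelled FOXO3-/- from -0.055 to 0.119, and each call stated as holding under every alternative also held there.

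Tlr1, the TLR2 partner for triacylated lipopeptides, was the steepest of the falls. Its gene lies at chr5:64924679-64933563 on the minus strand (GRCm38, as are all gene positions here). In wild-type vehicle libraries it stood at 14.9, 17.3, 29.3 and 16.7 FPKM, and with dexamethasone at 2.94, 4.65, 3.36 and 4.70 FPKM. In vehicle libraries labelled FOXO3-/- it stood at 32.4, 25.7, 31.8 and 26.3 FPKM, and with dexamethasone at 5.70, 5.81, 7.74 and 6.56 FPKM. All 4 libraries with dexamethasone lay below all 4 with vehicle in both genotypes. Mean levels were 5-fold lower in wild type and 4.5-fold lower in libraries labelled FOXO3-/-. This gave a log2 difference of -2.03 ± 0.181 (SE; adjusted p = 1.53e-06) and -2.01 ± 0.181 (adjusted p = 1.08e-06), and both calls held under all 27 alternatives, with log2 differences from -2.27 to -1.83 and from -2.15 to -1.91.

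Tlr2, the shared partner of TLR1 and TLR6, lies at chr3:83836272-83841767 (minus strand) and fell less. Wild-type libraries gave 26.9, 34.2, 22.6 and 33.9 FPKM with vehicle and 18.2, 22.6, 19.4 and 26.8 FPKM with dexamethasone, so that the groups overlapped. Libraries labelled FOXO3-/- gave 35.7, 34.1, 33.6 and 45.7 FPKM with vehicle and 24.0, 24.6, 23.0 and 26.4 FPKM with dexamethasone, without overlap. On the log2 scale the difference was -0.41 ± 0.141 (adjusted p = 0.0396) in wild type and -0.58 ± 0.141 (adjusted p = 0.00495) in libraries labelled FOXO3-/-. The wild-type call was lost in 11 of 27 alternatives (adjusted p from 0.000107 to 0.139 over all of them), among them the single removal of wild-type vehicle replicate 2 (0.113) or 4 (0.114), of wild-type dexamethasone replicate 1 (0.117), 2 (0.0573) or 3 (0.0965), or of FOXO3-/- dexamethasone replicate 2 (0.0512).

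Tlr6, the TLR2 partner for diacylated lipopeptides, lies next to Tlr1 at chr5:64952031-64960097 (minus strand). Wild-type libraries ranged from 9.18 to 13.3 FPKM with vehicle and from 9.07 to 11 FPKM with dexamethasone, and libraries labelled FOXO3-/- from 12 to 13.5 FPKM and from 9.68 to 11.6 FPKM. The wild-type groups overlapped and the FOXO3-/- groups did not. Its log2 difference of -0.14 ± 0.097 did not pass in wild type (adjusted p = 0.32), and that of -0.26 ± 0.097 passed narrowly in libraries labelled FOXO3-/- (adjusted p = 0.0435). The latter call was lost in 13 of 27 alternatives (adjusted p from 0.00261 to 0.373 over all of them), including 0.0574 with a replicate block and 8 of the 16 removals of single libraries: wild-type vehicle replicate 4 (0.0523), wild-type dexamethasone replicate 2 (0.0504), and any library labelled FOXO3-/- other than vehicle replicate 4 and dexamethasone replicate 4 (0.0573 to 0.122). Tlr1 and Tlr6 share sequence: 15.4% of 50-base and 7.89% of 100-base stretches of Tlr1 transcripts also occur in Tlr6, and 12.3% and 7.09% of those of Tlr6 occur in Tlr1. How reads from such stretches were assigned was not stated in the sources used here, so the levels of this pair are less certain than those of Tlr2.

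Tlr4, the lipopolysaccharide receptor at chr4:66827584-66930284 (plus strand), did not pass in either genotype. It stood at 9.54, 12, 14.1 and 12.4 FPKM with vehicle and at 7.34, 11.6, 7.97 and 10.8 FPKM with dexamethasone in wild type. Libraries labelled FOXO3-/- gave 14.2, 8.74, 13.9 and 12.5 FPKM with vehicle and 12.2, 12.7, 13.4 and 11.9 FPKM with dexamethasone. The groups overlapped in both genotypes. The log2 difference was -0.33 ± 0.157 (95% interval -0.66 to 0.01; adjusted p = 0.133) in wild type and 0.05 ± 0.157 (-0.29 to 0.38; adjusted p = 0.849) in libraries labelled FOXO3-/-. Of 27 alternatives, 1 called it lower in wild type, the weighting of libraries by limma's array weights (-0.45, adjusted p = 0.0105, range over all alternatives to 0.332), and none called it in libraries labelled FOXO3-/-.

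Cd14, at chr18:36725067-36726798 (minus strand), fell in both genotypes and remained the most abundant of the 10 transcripts. Wild-type libraries held 188, 201, 151 and 179 FPKM with vehicle and 111, 153, 118 and 141 FPKM with dexamethasone, overlapping between 151 and 153. Libraries labelled FOXO3-/- held 196, 203, 211 and 284 FPKM with vehicle and 134, 121, 124 and 145 FPKM with dexamethasone, with no overlap. This gave a log2 difference of -0.46 ± 0.130 (adjusted p = 0.0154) in wild type and -0.75 ± 0.130 (adjusted p = 0.000399) in libraries labelled FOXO3-/-. The wild-type call was lost in 3 of 27 alternatives (adjusted p from 7.11e-05 to 0.216 over all of them), namely quantile normalization (0.216), voom (0.086) and the removal of wild-type dexamethasone replicate 1 (0.0531).

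Among the endosomal receptors, Tlr7 rose in both genotypes. Tlr7 and Tlr8 are neighbours on the minus strand of chromosome X, at chrX:167304929-167330558 and chrX:167242696-167264329. Tlr7 stood at 29.6, 39.6, 50.3 and 40.5 FPKM with vehicle and at 80.8, 116, 80.0 and 127 FPKM with dexamethasone in wild type. In libraries labelled FOXO3-/- it stood at 35.9, 34.1, 43.7 and 37.0 FPKM with vehicle and at 113, 116, 108 and 105 FPKM with dexamethasone. Every dexamethasone library lay above every vehicle library, with means 2.52-fold and 2.94-fold higher. On the log2 scale the difference was 1.31 ± 0.161 (adjusted p = 3.11e-05) and 1.53 ± 0.161 (adjusted p = 4.68e-06), and both calls held under all 27 alternatives, with log2 differences from 1.17 to 1.47 and from 1.49 to 1.73.

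Tlr8 rose where cells were labelled FOXO3-/- and did not pass in wild type. Wild-type libraries gave 32.4, 40.2, 61.1 and 42.3 FPKM with vehicle and 37.9, 57.1, 37.5 and 74.6 FPKM with dexamethasone, with wide overlap. Libraries labelled FOXO3-/- gave 60.1, 46.5, 60.9 and 42.9 FPKM with vehicle and 92.4, 93.7, 103 and 104 FPKM with dexamethasone, with none. The log2 difference was 0.21 ± 0.215 (95% interval -0.25 to 0.67; adjusted p = 0.506) in wild type and 0.90 ± 0.215 (0.44 to 1.36; adjusted p = 0.00408) in libraries labelled FOXO3-/-, and the second call held under all 27 alternatives. The difference between both responses was 0.70 ± 0.304 (unadjusted p = 0.0375, adjusted p = 0.388), so a difference between genotypes in the response of Tlr8 was not established.

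Tlr9, at chr9:106222598-106226883 (plus strand), moved opposite to Tlr7 although both are endosomal receptors. Wild-type libraries gave 14.7, 18.1, 12.8 and 16.8 FPKM with vehicle and 8.37, 8.99, 8 and 12.3 FPKM with dexamethasone. Libraries labelled FOXO3-/- gave 25.3, 25.0, 23.1 and 33.2 FPKM with vehicle and 13.3, 16, 14.6 and 21 FPKM with dexamethasone. In neither genotype did the groups overlap, and the means fell to 0.603 and 0.609 of the vehicle level. This gave a log2 difference of -0.68 ± 0.157 (adjusted p = 0.00463) in wild type and -0.69 ± 0.157 (adjusted p = 0.00311) in libraries labelled FOXO3-/-, called under all 27 alternatives.

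Tlr13 and Tlr3 did not pass in either genotype. Tlr13, at chrX:106143204-106160493 (plus strand), was the most abundant receptor with vehicle and spanned 76.0 to 117 FPKM with vehicle and 62.7 to 87.8 FPKM with dexamethasone in wild type. In libraries labelled FOXO3-/- it spanned 72.4 to 122 FPKM and 80.6 to 92.7 FPKM. Its log2 difference was -0.19 ± 0.167 (adjusted p = 0.416) and -0.17 ± 0.167 (adjusted p = 0.457). Without the 3 libraries apart in Col1a1 it was -0.32 in libraries labelled FOXO3-/- (adjusted p = 0.0119), and with array weights it was -0.34 (adjusted p = 0.00915, within a range to 0.996 over all alternatives). Tlr3, at chr8:45395665-45411080 (minus strand), was the least abundant, between 1.35 and 3.09 FPKM in all 16 libraries. Gm45542, which overlaps it on the opposite strand, was listed at 0 in every library. Of the 50-base stretches of Tlr3 transcripts 5.3% also occur in other genes, with Gm45542 the main one. The strand setting and how such reads were assigned were not stated. The 0 thus does not show that the overlap left the Tlr3 level unchanged. The log2 difference of Tlr3 was -0.22 ± 0.130 (adjusted p = 0.221) and -0.13 ± 0.130 (adjusted p = 0.453), and the latter passed with array weights alone (-0.26, adjusted p = 0.0484, range over alternatives to 0.969).

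**Figure D2:**
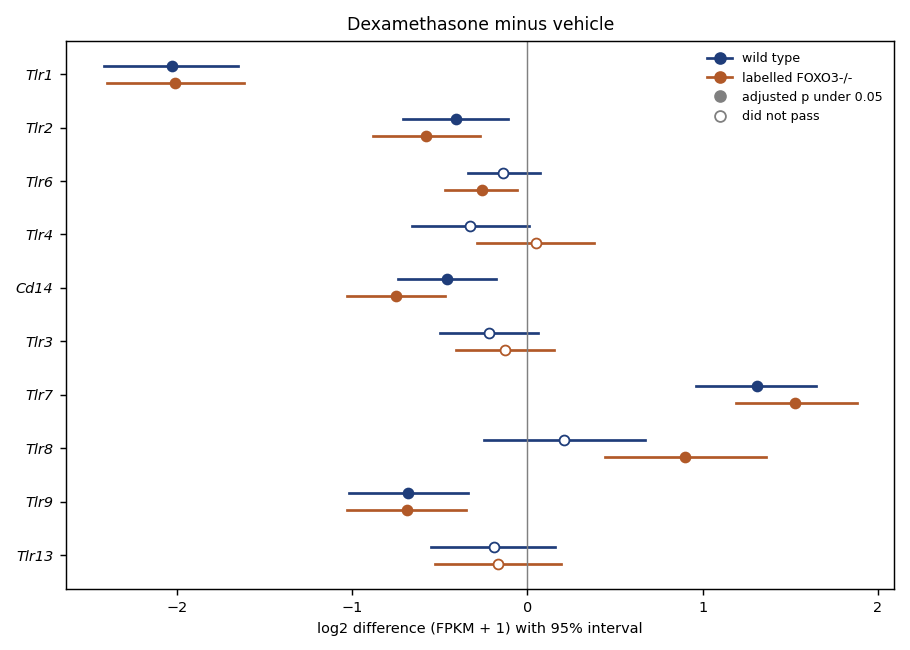
Dexamethasone minus vehicle on the log2(FPKM + 1) scale (horizontal axis) for the 10 genes in wild type and in libraries labelled FOXO3-/-, from limma over all 16 libraries; lines are 95% intervals and filled points have an adjusted p under 0.05. Tlr1 lies near -2 in both genotypes, Tlr7 at 1.31 and 1.53, and Tlr8 is filled only in libraries labelled FOXO3-/-, at 0.90.

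By summed FPKM, the receptor pool shifted from surface towards endosomal transcripts, unevenly over its genes. In wild type Tlr7 averaged 40 FPKM with vehicle and 101 FPKM with dexamethasone, a larger rise than that of the whole endosomal sum. Tlr13, Tlr9 and Tlr3 had lower means with dexamethasone in both genotypes, though of these only Tlr9 passed. Among surface receptors, Tlr1 averaged 19.5 and 3.91 FPKM in wild type. As a share of the summed FPKM of the 9 receptors, the surface receptors made up 27.9% ± 2.31 (SD, n = 4) with vehicle and 16% ± 0.931 with dexamethasone in wild type, and 29.5% ± 2.98 and 14.6% ± 0.267 in libraries labelled FOXO3-/-. The lowest vehicle library held 24.5% and the highest dexamethasone library 17.1%. Surface receptors summed to 71.9 ± 8.05 FPKM with vehicle and 44.9 ± 7.43 FPKM with dexamethasone in wild type, and to 91.5 ± 6.79 and 54.1 ± 2.06 FPKM in libraries labelled FOXO3-/-. Endosomal receptors summed to 188 ± 38.5 and 238 ± 55.2 FPKM in wild type, where the libraries overlapped, and to 220 ± 27.4 and 315 ± 9.60 FPKM in libraries labelled FOXO3-/-, where they did not. These sums are descriptions without a test, because the genes were chosen with results known.

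The shares of single receptors moved by unequal amounts. Tlr7 made up 15.3% ± 1.05 of the 9-receptor sum with vehicle and 35.5% ± 1.04 with dexamethasone in wild type, and 12.1% ± 1.26 and 30.0% ± 1.87 in libraries labelled FOXO3-/-. Tlr1 went from 7.38% ± 1.13 to 1.38% ± 0.0919 and from 9.29% ± 0.314 to 1.74% ± 0.226. Tlr2 went from 11.6% ± 3.15 to 7.75% ± 0.496 and from 12.1% ± 2.74 to 6.63% ± 0.383. Tlr8 stood at 16.7% ± 1.62 and 17.9% ± 2.19 in wild type and went from 16.8% ± 1.49 to 26.6% ± 1.20 in libraries labelled FOXO3-/-. The Tlr13 share went from 33.1% ± 3.20 to 26.7% ± 1.73 and from 32.1% ± 4.61 to 23.8% ± 0.973. The partners of TLR2 changed places: the Tlr1 to Tlr6 ratio was 1.76 ± 0.313 with vehicle and 0.395 ± 0.060 with dexamethasone in wild type, and 2.25 ± 0.235 and 0.612 ± 0.110 in libraries labelled FOXO3-/-. Among nucleic acid receptors, the Tlr7 to Tlr9 ratio went from 2.64 ± 0.880 to 10.7 ± 1.46 and from 1.45 ± 0.324 to 7.04 ± 1.45. Tlr13 was above Tlr7 in every vehicle library and below it in every dexamethasone library, with a Tlr7 to Tlr13 ratio of at most 0.533 with vehicle and at least 1.17 with dexamethasone. The endosomal receptors did not move as a block, since Tlr9 fell while Tlr7 rose.

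**Figure D3:**
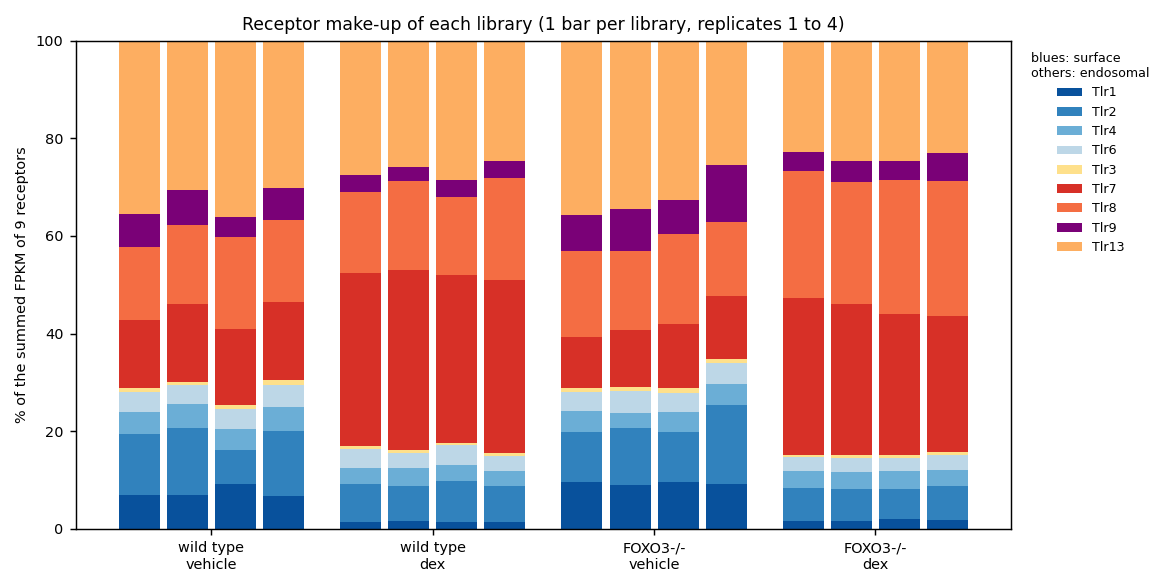
Share of each receptor in the summed FPKM of the 9 receptors (vertical axis, percent), 1 bar per library, replicates 1 to 4 from left to right in each group; blues are surface receptors and the other colours endosomal ones. Surface receptors make up 24.5% to 34% of a vehicle bar and 14.4% to 17.1% of a dexamethasone bar, and Tlr7 widens to between 27.9% and 36.8% with dexamethasone.

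Between genotype labels, Tlr9 was the gene with the steadiest difference. With vehicle it was the single gene of the 10 that passed, against 4.68% of all genes called (3.37% higher and 1.30% lower). With dexamethasone Tlr1, Tlr8 and Tlr9 were higher in libraries labelled FOXO3-/-, 3 of 10, against 26.7% of all genes called (14.3% higher and 12.4% lower), and none was lower. The median log2 difference of the 10 genes was 0.25 with vehicle and 0.27 with dexamethasone, and over all genes 0.04 and 0.03. Of all calls 72.1% were higher with vehicle (61.6% after quantile normalization, 57.2% by voom) and 53.7% with dexamethasone (67.4% by voom).

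Tlr9 averaged 15.6 ± 2.33 FPKM in wild type and 26.7 ± 4.47 FPKM in libraries labelled FOXO3-/- with vehicle, and 9.42 ± 1.97 and 16.2 ± 3.34 FPKM with dexamethasone (SD, n = 4). No library labelled FOXO3-/- was as low as any wild-type library under the same treatment, and the means were 1.71-fold and 1.72-fold higher. On the log2 scale the difference was 0.73 ± 0.157 (adjusted p = 0.0151) with vehicle and 0.72 ± 0.157 (adjusted p = 0.00601) with dexamethasone. With a stromal marker score as a covariate it was 0.84 (adjusted p = 0.0149) and 0.87 (adjusted p = 0.0128), and without the 3 libraries apart in Col1a1 it was 0.54 (adjusted p = 0.00588) and 0.85 (adjusted p = 0.000105). The vehicle call was lost in 1 of 27 alternatives, when wild-type vehicle replicate 1 was left out (adjusted p = 0.0519, within a range from 0.000853). Plasmacytoid dendritic cells and B cells are rich in Tlr9 and Tlr7. The B cell marker list summed to 1.51 to 2.06 FPKM in wild-type vehicle, 0.766 to 1.13 in wild-type dexamethasone, 2.59 to 4.52 in FOXO3-/- vehicle and 1.91 to 3.20 FPKM in dexamethasone libraries labelled FOXO3-/-. These sums were lower with dexamethasone and higher in libraries labelled FOXO3-/-, as Tlr9 was, although the FOXO3-/- groups overlapped. Of its 5 markers 1 passed the filter, and it was lower with dexamethasone in both genotypes and higher in libraries labelled FOXO3-/- in both treatments. Of the 8 plasmacytoid markers, 3 or 4 averaged at least 1 FPKM, led by Bst2 and Irf8, which macrophages also express. Siglech, which defines plasmacytoid cells, stayed at or below 0.0898 FPKM and Klk1 was at 0 throughout. The plasmacytoid list summed to 249 to 280 FPKM in wild-type vehicle, 119 to 169 in wild-type dexamethasone, 320 to 438 in FOXO3-/- vehicle and 175 to 211 FPKM in dexamethasone libraries labelled FOXO3-/-. Bst2, an interferon-induced surface protein, averaged 208, 87.3, 314 and 133 FPKM in these groups, lower with dexamethasone and higher in libraries labelled FOXO3-/- as Tlr9 was. The other markers that reached 1 FPKM did not all share this pattern. Irf8 averaged 50.5, 44.3, 49.3 and 49.3 FPKM, and Tcf4 2.62, 3.05, 2.82 and 3.79 FPKM, higher with dexamethasone. Cox6a2 averaged 1.14, 0.631, 2.11 and 0.458 FPKM, lower with dexamethasone and higher in libraries labelled FOXO3-/- with vehicle only. The part of either marker list in the Tlr9 result was not tested.

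Tlr8 in libraries labelled FOXO3-/- with dexamethasone averaged 98.3 ± 6.08 FPKM against 51.8 ± 17.7 FPKM in wild type, 1.90-fold higher and without overlap. The log2 difference was 0.97 ± 0.215 (adjusted p = 0.00668). Tlr1 averaged 6.45 ± 0.937 against 3.91 ± 0.898 FPKM, also without overlap, at a log2 difference of 0.61 ± 0.181 (adjusted p = 0.025). Stromal markers differed between these groups, as given above, and wild-type dexamethasone replicate 4, the library low in Col1a1 in its group, was the highest of its group for Tlr8 and Tlr1. With the stromal score as a covariate the differences were 0.52 for Tlr8 (adjusted p = 0.14, within a range from 4.92e-06) and 0.32 for Tlr1 (adjusted p = 0.381, within a range from 0.000107), and neither passed. Without the 3 libraries apart in Col1a1 they were 1.16 (adjusted p = 4e-05) and 0.69 (adjusted p = 0.000958). The Tlr1 call was also lost without wild-type dexamethasone replicate 1 (0.0865) or 3 (0.0751), without FOXO3-/- dexamethasone replicate 3 (0.0682), and without a filter on low values (0.0528).

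With vehicle, Tlr1 averaged 29.0 ± 3.52 FPKM in libraries labelled FOXO3-/- and 19.5 ± 6.58 FPKM in wild type, at a log2 difference of 0.59 ± 0.181 that did not pass (adjusted p = 0.0772, range over alternatives 0.00019 to 0.349). Wild-type vehicle replicate 3, at 29.3 FPKM, lay among the libraries labelled FOXO3-/-, and without it the difference was 0.79 (adjusted p = 0.00414). Tlr6 passed without that library as well (0.32, adjusted p = 0.0283, range 0.00199 to 0.663). Tlr4 with dexamethasone was 0.40 ± 0.157 higher on the log2 scale (adjusted p = 0.0705, range 0.0008 to 0.459), a value that passed without wild-type dexamethasone replicate 2 (0.0416) or 4 (0.045) or FOXO3-/- vehicle replicate 2 (0.0398). Tlr7 did not pass in either treatment, with 95% intervals of the log2 difference from -0.41 to 0.28 with vehicle and from -0.18 to 0.51 with dexamethasone. Cd14 was at 131 FPKM in both genotypes with dexamethasone, with an interval from -0.27 to 0.29. Other log2 differences with vehicle did not pass: Tlr2 0.34 (adjusted p = 0.187), Cd14 0.30 (0.201), Tlr8 0.27 (0.469), Tlr6 0.23 (0.193), Tlr13 0.22 (0.453), Tlr3 0.20 (0.37) and Tlr4 0.03 (0.939). With dexamethasone Tlr3 at 0.29 (0.106), Tlr13 at 0.24 (0.288), Tlr2 at 0.18 (0.368) and Tlr6 at 0.10 (0.448) did not pass either. Some of these passed under alternatives, as counted below.

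**Figure D4:**
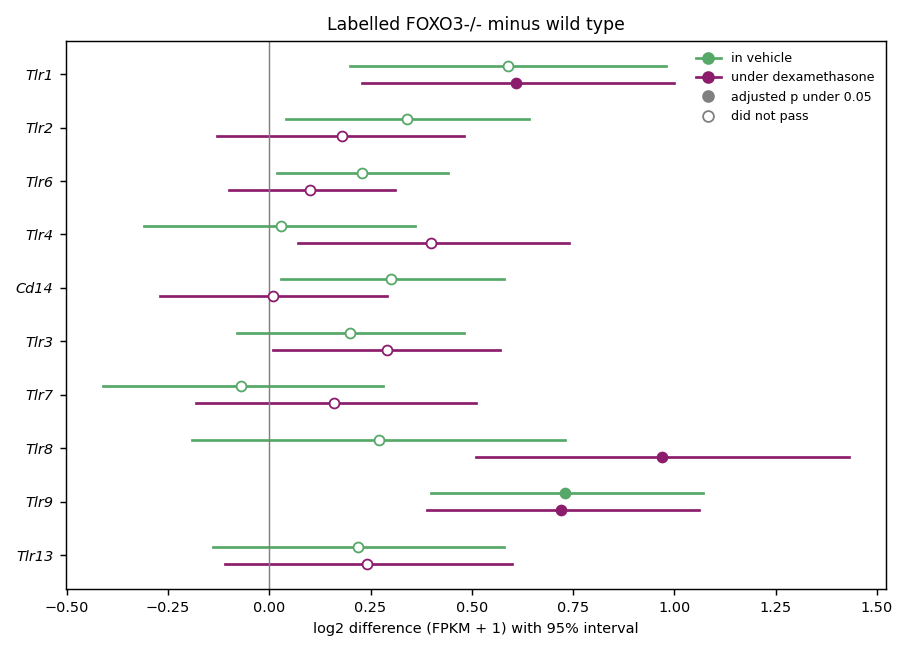
FOXO3-/- minus wild type on the log2(FPKM + 1) scale (horizontal axis) for the 10 genes with vehicle and with dexamethasone, from limma over all 16 libraries; lines are 95% intervals and filled points have an adjusted p under 0.05. Tlr9 is filled in both treatments, at 0.73 and 0.72, and Tlr8 and Tlr1 are filled with dexamethasone only, at 0.97 and 0.61.

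The response to dexamethasone was compared between genotypes by the interaction term. None of the 10 genes passed in limma, 1 of 10 (Tlr8) had an unadjusted p under 0.05, and voom gave the same counts of 0 and 1. Over all genes, 0.129% passed, 0.0601% with a higher and 0.0686% with a lower response in libraries labelled FOXO3-/-. For Tlr1 and Tlr9 the interval of the difference between responses was -0.52 to 0.57 and -0.49 to 0.47 on the log2 scale, so genotype effects on these responses of about that size cannot be told from none at this number of libraries.

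Within groups, the genes tended to vary in 2 sets that cut across the surface and endosomal classes, with an exception in 1 library. Wild-type vehicle replicate 3 was the highest of its group for Tlr1, Tlr6, Tlr4, Tlr3, Tlr7, Tlr8 and Tlr13 and the lowest for Tlr2, Cd14 and Tlr9. FOXO3-/- vehicle replicate 4, high in stromal markers, was the highest of its group for Tlr2, Cd14 and Tlr9 and the lowest for Tlr6, Tlr8 and Tlr13. Wild-type dexamethasone replicate 4 did not keep to the sets: it was the highest of its group for Tlr1, Tlr2, Tlr6, Tlr7, Tlr8, Tlr9 and Tlr13 and the lowest for none. As a description over 16 libraries that share depth and stromal content, deviations from the group means correlated at Pearson's r from 0.52 to 0.89 (median 0.75) for the 21 pairs within the set of 7, from 0.70 to 0.87 for the 3 pairs among Tlr2, Cd14 and Tlr9, and from -0.44 to 0.25 (median 0.04) for the 21 pairs between both. The sets were read from the same values. The deviations of Tlr13 and of Tlr8 from their group means correlated with those of the stromal score at r = -0.79 and -0.68, and those of Cd14 and Tlr9 at r = 0.45 and 0.30. Tlr1 and Tlr7 show how far both views can part: across the 16 libraries, where dexamethasone moved them in opposite directions, r was -0.84, and within groups it was 0.77.

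**Figure D5:**
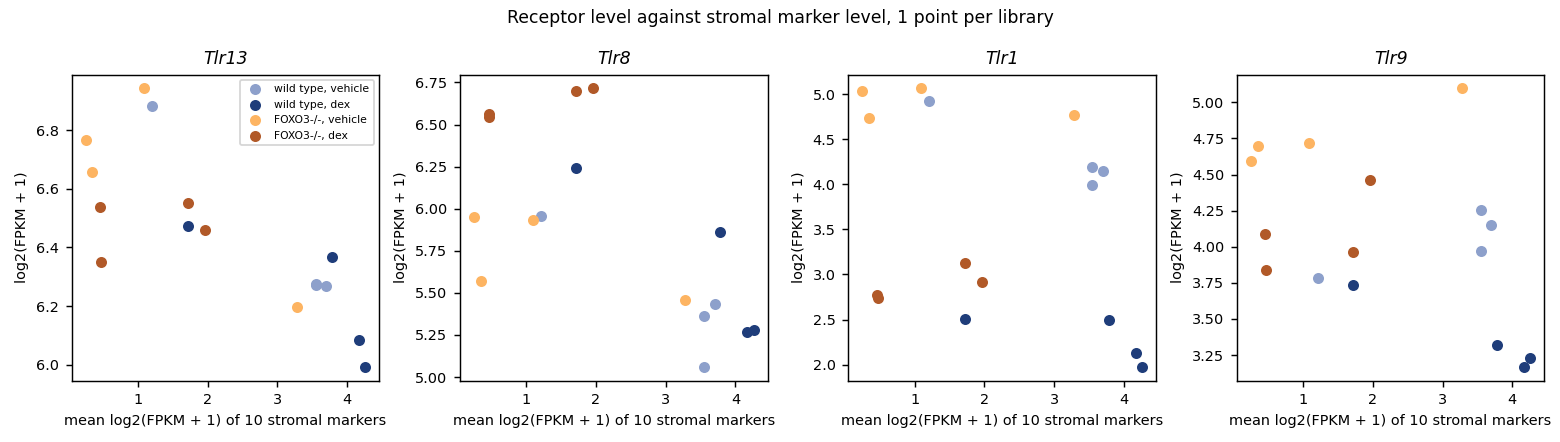
Level of Tlr13, Tlr8, Tlr1 and Tlr9 as log2(FPKM + 1) (vertical axes, not starting at 0) against the mean log2(FPKM + 1) of 10 stromal markers (horizontal axis), 1 point per library, coloured by group. The stromal mean runs from 0.25 to 4.26; Tlr13 is lower in libraries with more stromal RNA, and FOXO3-/- vehicle replicate 4, at a stromal mean of 3.28, is the highest library for Tlr9.

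Of the other TLR genes, Tlr5, the flagellin receptor, averaged 0.204 ± 0.126 FPKM with vehicle (4 to 25 reads per library) and 1.31 ± 0.297 FPKM with dexamethasone (72 to 132 reads) in wild type. In libraries labelled FOXO3-/- it averaged 0.284 ± 0.209 FPKM (13 to 55 reads) and 1.11 ± 0.106 FPKM (87 to 110 reads). These levels are given without a test, because Tlr5 passed the filter on low values only through its dexamethasone libraries. Tlr11 and Tlr12, receptors for profilin, reached at most 0.0689 and 0.306 FPKM and were not tested.

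Genes of the wider pathway are counted beside the share of all genes called with dexamethasone, which was 18.2% lower and 11.9% higher in wild type, and 24.1% lower and 15.0% higher in libraries labelled FOXO3-/-. Lower calls thus outnumbered higher ones over all genes too, and by voom the split over all genes was the other way, as given above. By voom 3603 of 11654 genes were called in wild type, 56.1% of them higher. In libraries labelled FOXO3-/- 5016 were called by voom, 65.6% of them higher. Of 4 tested ligand-delivery genes, 2 fell in wild type, and 2 fell and 1 rose in libraries labelled FOXO3-/-. Cd180, a receptor-like protein that with MD-1 tunes TLR4 responses, fell from 43.6 ± 8.25 FPKM to 6.14 ± 1.21 in wild type (log2 difference -2.64 ± 0.175, adjusted p = 1.03e-07), and from 61.3 ± 11.5 to 9.62 ± 2.12 FPKM in libraries labelled FOXO3-/- (-2.56 ± 0.175, adjusted p = 7.84e-08). Cd36, a scavenger receptor that assists TLR2 with TLR6, fell by 1.76 and by 0.95 on the log2 scale (adjusted p = 0.000246 and 0.0131). Ly96, which encodes MD-2, rose in libraries labelled FOXO3-/- from 8.51 ± 1.38 to 16.8 ± 2.01 FPKM (0.91 ± 0.196, adjusted p = 0.00208) and stood at 10.4 ± 3.52 and 10.9 ± 2.70 FPKM in wild type. With dexamethasone all 4 tested genes of this list, Ly86 included, were higher in libraries labelled FOXO3-/- than in wild type, against 14.3% of all genes, and none passed with vehicle. Stromal markers differed between these groups as well: with the stromal score as a covariate none of the 4 passed (adjusted p from 0.164 for Ly86 to 0.596 for Ly96), and without the 3 libraries apart in Col1a1 all 4 did. Calls over all genes in that comparison moved the same way, from 3114 to 955 of 11654 with the covariate and to 5130 of 11473 without those libraries.

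Of 7 tested genes that transport and fold the receptors, 3 fell in wild type and 2 in libraries labelled FOXO3-/-, the latter near the share of all genes. Unc93b1, the chaperone of the endosomal TLRs, averaged 410 ± 34.2 FPKM with vehicle and 287 ± 58.5 with dexamethasone in wild type, and 484 ± 43.2 and 343 ± 17.5 FPKM in libraries labelled FOXO3-/- (log2 difference -0.53 and -0.49, adjusted p = 0.00272 and 0.00332). Rab7b, a small GTPase of late endosomes, fell by 0.64 and by 0.71 (adjusted p = 0.000544 and 0.000154). Hsp90b1, the folding chaperone of most TLRs, did not pass (-0.21 and -0.27, adjusted p = 0.15 and 0.0554). Of 11 tested genes of endosomal processing, 5 fell and none rose in wild type, and 4 fell and none rose in libraries labelled FOXO3-/- (1 rose in wild type after quantile normalization, and 1 in libraries labelled FOXO3-/- by voom). Slc15a3, an endosomal peptide transporter, went from 38.8 ± 5.86 to 10.3 ± 1.74 FPKM and from 37.6 ± 3.02 to 13.7 ± 1.49 FPKM (-1.82 and -1.40, adjusted p = 1.02e-07 and 7.08e-07). Dnase2a, a lysosomal DNase, fell by 0.42 and by 0.27 (adjusted p = 0.0011 and 0.0125), and was higher in libraries labelled FOXO3-/- in both treatments (0.31 and 0.45, adjusted p = 0.035 and 0.00147). Pld4, an endolysosomal exonuclease that trims TLR9 ligands, was likewise higher in libraries labelled FOXO3-/-, at 324 ± 15.1 against 233 ± 12.6 FPKM with vehicle (0.48 ± 0.1, adjusted p = 0.0136) and 310 ± 9.06 against 203 ± 39.2 FPKM with dexamethasone (0.63 ± 0.1, adjusted p = 0.000847). With the stromal covariate both genes passed with dexamethasone (adjusted p = 0.0334 for Dnase2a and 0.0169 for Pld4) and neither passed with vehicle (0.185 and 0.0739).

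Of 5 tested adaptors, 2 fell in wild type and 1 in libraries labelled FOXO3-/-, a count too small to set against the share of all genes. Pik3ap1, which links TLRs to phosphoinositide 3-kinase, fell in both (-1.28 and -1.34, adjusted p = 9.01e-05 and 3.88e-05). Myd88, the adaptor of all these receptors but TLR3, did not pass with dexamethasone (0.13 and 0.14, adjusted p = 0.329 and 0.267) and was higher in libraries labelled FOXO3-/-, at 35.7 ± 3.13 against 26.5 ± 3.50 FPKM with vehicle (adjusted p = 0.023) and 39.4 ± 1.09 against 29.2 ± 3.67 FPKM with dexamethasone (adjusted p = 0.00735). Neither Myd88 difference passed with the stromal covariate (adjusted p = 0.115 and 0.167). Of 18 kinases and ligases, 7 fell and 1 rose in wild type, and 5 fell and 2 rose in libraries labelled FOXO3-/-, where both counts were near the shares of all genes. By voom 4 fell and 3 rose in wild type, and 4 fell and 7 rose in libraries labelled FOXO3-/-. Over all 11654 genes voom called 3603 and 5016, of which 56.1% and 65.6% were higher. Irak2, a kinase that sustains MyD88 signalling, fell from 11.3 ± 0.988 to 5.30 ± 0.878 FPKM and from 12.9 ± 0.452 to 4.79 ± 0.478 FPKM (adjusted p = 2.87e-06 and 1.48e-07). Traf3, a ligase on the way to type I interferon, fell by 0.51 and by 0.87 (adjusted p = 0.001 and 6.51e-06).

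Of 15 tested negative regulators of TLR signalling, 7 fell and 2 rose in wild type, and 9 fell and 2 rose in libraries labelled FOXO3-/-. By voom these counts were 6 and 3, and 8 and 2, beside 3603 and 5016 of all 11654 genes called by voom. Atf3, a repressor of cytokine genes, went from 215 ± 41.2 to 69.6 ± 10 FPKM and from 213 ± 64.0 to 46.2 ± 8.13 FPKM (adjusted p = 6.01e-05 and 3e-06). Trem2, a lipid receptor that signals through Tyrobp, fell by 1.44 and by 1.20 (adjusted p = 7.48e-06 and 2.39e-05). Irak3, an inactive kinase that blocks MyD88 signalling, did not pass in wild type (0.07, adjusted p = 0.54), fell by 0.38 in libraries labelled FOXO3-/- (adjusted p = 0.000804) and was 0.52 higher in FOXO3-/- than in wild-type libraries with vehicle (adjusted p = 0.000792). Of 10 transcription factors at the end of the pathway, 4 fell and 1 rose in wild type, and 5 fell and none rose in libraries labelled FOXO3-/- (by voom 3 rose there). Irf7, the interferon regulator that acts with TLR7 and TLR9, went from 14.8 ± 2.59 to 4.70 ± 1.42 FPKM and from 34.5 ± 10.8 to 13.8 ± 3.25 FPKM (adjusted p = 0.000232 and 0.000686), and it was higher in libraries labelled FOXO3-/- in both treatments (1.14 and 1.38, adjusted p = 0.0106 and 0.00113; with the stromal covariate 0.81 and 0.95, adjusted p = 0.0521 and 0.0214). Spi1, which encodes PU.1, fell by 0.44 and by 0.48 (adjusted p = 0.0103 and 0.00412). No gene of these lists passed the interaction test.

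The tested gene with the most similar pattern over the 16 libraries is given for 9 of the 10 genes. Tlr1 was followed most closely by Tnip3 (r = 0.99), Tlr7 by Klhl24 (r = 0.99), Tlr8 by Dram2 (r = 0.98), Tlr9 by Rassf4 (r = 0.96) and Tlr13 by Xpr1 (r = 0.96). Cd14 was followed by Nup93 (r = 0.94), Tlr2 by Tnfrsf14 (r = 0.93), Tlr4 by Cd2ap (r = 0.93) and Tlr6 by Raph1 (r = 0.92). None of these nearest genes was itself a TLR or Cd14. The libraries share group, depth and stromal content, and each nearest gene was picked from 11654 genes.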

How the data were processed

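RNA-sequencing values of 16 libraries were used, 4 in each group, grouped by title. The authors deposited 1 table of FPKM per library. Per the submitters' processing notes, the tools included TopHat2 2.0.12 and Bowtie2 2.2.3, HTSeq 0.6.1 and DESeq2, and the builds were mm10 and GRCm38; each tool's role and the strand setting were not stated there. GENCODE M21 on GRCm38 supplied symbols, exon lengths and positions for 54495 identifiers. FPKM times exon length gave reads that were whole within 0.05 for 96.5% of positive values; those of Cd14 were not, so its read numbers are uncertain.

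Values were tested as log2(FPKM + 1), a scale that understates changes of low genes, for genes that reached 1 FPKM in 4 or more libraries. limma 3.58.1 (trend; R 4.3.3) fitted 4 group means, for 5 contrasts, with two-sided p-values adjusted by Benjamini-Hochberg over 11654 genes and a threshold of 0.05. The fit was tested on simulated data. Alternatives covered pseudocount, filter, scaling, weights, groups, replicate block, a stromal covariate, voom on recovered reads, and libraries left out. Figures and summaries used Python 3.11.15, pandas 2.3.3 and matplotlib 3.10.9. Genes, lists and alternatives were chosen with earlier results of these data known. All 10 genes are given by treatment and by genotype, and for the interaction as a count, with main values for Tlr1, Tlr8 and Tlr9. Of each pathway list, names came from the 4 called genes with the smallest adjusted p in each comparison and the first 3 measured. Likeness was Pearson's r of log2(FPKM + 1). The gene nearest in pattern to Tlr3 and the level of 1 B cell marker are not reported here.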

Additional observations from a re-analysis of the deposited data

Results flagged for a closer look

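In 2 of 40 gene-by-group sets of 4 libraries, 1 library stood apart by Dixon's criterion for 4 values, about the rate that chance gives, 1 in 20. Tlr1 in wild-type vehicle replicate 3 was 29.3 FPKM, against 14.9 to 17.3 FPKM in the other libraries of the group. Tlr13 in the same library was 117 FPKM, against 76.0 to 76.4 FPKM. This library was low in Col1a1 for its group, with a stromal mean of 1.21 against 3.55 to 3.70 on the log2(FPKM + 1) scale, and the part of stromal content in these values was not tested.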

How the results depend on the processing

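Of 16 called differences, 10 were called under every alternative and none changed sign; the exceptions were Tlr2 and Cd14 (dexamethasone, wild type), Tlr6 (dexamethasone, FOXO3-/-), Tlr9 (genotype, vehicle), and Tlr1 and Tlr8 (genotype, dexamethasone). The number of the 10 genes called with dexamethasone in wild type was 5 and became 3 after quantile normalization and by voom (3 to 5 with single libraries left out) and 6 with array weights, which added Tlr4; in FOXO3-/- libraries it was 7 (6 to 7), 8 without the 3 libraries apart in Col1a1, which added Tlr13, and 9 with array weights, which added Tlr3 and Tlr13. Array weights also raised the calls over all genes, for dexamethasone from 3508 to 4669 and from 4562 to 6189 of 11654. Without those 3 libraries the calls for dexamethasone over all genes were 3864 and 5276 of 11473. Between genotypes the number of the 10 genes called was 1 with vehicle, 6 with array weights, 5 without those 3 libraries, and 0 to 3 with single libraries left out (0 without wild-type vehicle replicate 1, 3 without replicate 3). With dexamethasone it was 3, 9 with array weights, 6 without those 3 libraries, 1 with the stromal covariate and 2 to 4 with single libraries left out. Calls over all genes between genotypes moved as well. With vehicle they were 545, 4840 with array weights, 3917 of 11473 without those 3 libraries and 1624 of 11587 without wild-type vehicle replicate 3. With dexamethasone they were 3114, 6388 with array weights, 5130 of 11473 without those 3 libraries and 955 with the stromal covariate. The interaction count of 0 became 1 with array weights (Tlr8, 0.69, adjusted p = 0.0308, range over its alternatives to 0.651). Over all genes the interaction calls went from 15 to 1391 of 11654 with array weights. The cause of these shifts was not tested. Tlr3 has no value under the filter of 5 FPKM.

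Deviations of same-numbered libraries from their group means correlated between -0.68 and 0.73. Stromal content also differed between libraries, so these values cannot decide whether replicate numbers pair the samples. With a replicate block, 5, 6, 1, 3 and 0 genes were called in the 5 comparisons, Tlr6 being lost with dexamethasone in FOXO3-/- libraries.

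Only values that did not pass changed sign, on the log2 scale. For dexamethasone in FOXO3-/- libraries these were Tlr13 (0.023, quantile) and Tlr4 (-0.07, array weights; -0.097 to 0.115 with single libraries left out). For genotype with vehicle they were Tlr4 (-0.001 median-ratio, -0.01 quantile, -0.07 stromal covariate, -0.047 voom; -0.071 to 0.17 with single libraries left out), Tlr7 (0.013 array weights, 0.055 without the 3 libraries; -0.2 to 0.048 with single libraries left out), and Tlr8 (-0.064) and Tlr13 (-0.08) with the stromal covariate. For genotype with dexamethasone they were Cd14 (-0.014 median-ratio, -0.019 quantile; -0.062 to 0.088 with single libraries left out) and, with the stromal covariate, Tlr6 (-0.06), Tlr7 (-0.13) and Tlr13 (-0.152). For the interaction they were Tlr9 (0.011 pseudocount 0.1, 0.073 quantile, 0.255 array weights, 0.025 stromal covariate, 0.094 voom, 0.306 without the 3 libraries; -0.133 to 0.114 with single libraries left out), Tlr1 (-0.083 array weights, -0.049 stromal covariate, -0.146 without the 3 libraries; -0.18 to 0.131), Tlr2 (0.13 array weights, 0.151 without the 3 libraries) and Tlr13 (-0.132, -0.072 and -0.197 under the same 3 alternatives as Tlr1; -0.129 to 0.125).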
